A study of Mus musculus with 12 samples.

Results

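The 9 genes described here are the adult mouse globin genes Hba-a1, Hba-a2, Hbb-b1, Hbb-bs and Hbb-bt, the erythroid genes Alas2, Ahsp and Bpgm, and Epo, the erythropoietin gene. They were chosen on measured values: the globin genes were among the largest differences between the genotypes under cisplatin, and the others were added for their part in red cell formation. Of the 9, 7 had a row among the 27179 genes of the table, found by NCBI Gene number, and Hbb-bt and Ahsp were not analysed here. Of the 7, 6 passed the filter on low values, a TPM (a level per length of transcript, scaled so that every library has the same sum) of at least 1 in at least 3 libraries, which 14972 genes passed in all. Epo did not pass it.

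The data were 12 RNA sequencing libraries of whole kidneys from mice of 8 to 12 weeks on a mixed strain background, in 4 groups of 3. Mice of both genotypes, wild-type and FAN1KO, received saline, or cisplatin by intraperitoneal injection at 2 mg/kg once a week over 5 weeks. The genotype label of the FAN1KO mice is γGT1-Cre;Fan1-/-, a deletion that depends on Cre in the proximal tubule and by design leaves the gene in other cells. Kidneys were flash frozen after removal, and whether they were perfused is not given in the sources used here.

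Hemoglobin is a tetramer of alpha and beta chains, and red cell precursors make these chains in the bone marrow and spleen under the hormone erythropoietin, which interstitial cells of the adult kidney release when oxygen is low. Mature red cells have lost their nucleus, but young red cells, the reticulocytes, still carry globin mRNA, so that the blood held in a piece of tissue adds globin RNA to it. Alas2 makes the erythroid form of the enzyme that starts heme synthesis, and Bpgm makes bisphosphoglycerate mutase, which sets the oxygen affinity of hemoglobin and is also active outside red cells.

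The members that moved together are transcribed from 3 loci, and the bases just before their starts are shown because these stretches hold the letters of erythroid promoter motifs. Coordinates and sequences are those of RefSeq on GRCm38.p6, the build the labels call mm10. Hba-a1 (NCBI Gene 15122) spans chr11:32283672-32284486 and Hba-a2 (110257) spans chr11:32296492-32297310, both on the plus strand. Hbb-bs (100503605) spans chr7:103826523-103827928 on the minus strand, and Alas2 (11656) spans chrX:150547417-150570622 on the plus strand. Hbb-b1 (15129) is annotated on an alternate sequence and not on the reference chromosome. Each line gives the 120 bases before the start, 5′ to 3′, and capitals mark matches on either strand to any of 6 words. The motif of GATA factors was searched as AGATAA and also as the word TGATAA. Boxes bound by Klf1 were searched as CCACCC and likewise as the longer CACACCC. The remaining words were CCAAT, bound by several factors, and the TATA-like ATAAA. Other TATA spellings were not searched, so the letters catataag in the Hba-a1, Hba-a2 and Hbb-bs stretches stay in lower case. In Alas2 the capitals TTTATCT hold a GATA motif and a TATA-like motif of the minus strand that overlap. The windows are chr11:32283552-32283671, chr11:32296372-32296491, chr7:103827929-103828048 and chrX:150547297-150547416.
Hba-a1: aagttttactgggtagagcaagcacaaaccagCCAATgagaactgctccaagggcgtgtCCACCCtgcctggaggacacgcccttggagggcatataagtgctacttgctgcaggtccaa
Hba-a2: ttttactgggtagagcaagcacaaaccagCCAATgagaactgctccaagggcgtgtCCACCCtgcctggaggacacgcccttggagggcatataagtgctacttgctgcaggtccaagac
Hbb-bs: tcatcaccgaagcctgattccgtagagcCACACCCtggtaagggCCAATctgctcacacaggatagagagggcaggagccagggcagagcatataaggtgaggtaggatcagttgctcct
Alas2: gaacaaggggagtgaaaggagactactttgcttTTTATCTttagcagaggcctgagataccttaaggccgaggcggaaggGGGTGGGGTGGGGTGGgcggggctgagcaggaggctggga

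The Hba-a1 and Hba-a2 stretches are copies. Shifted by 3 bases, 247 of 247 bases were identical over the 250 bases before the starts. Both hold a CCAAT and a CCACCC match, and Hbb-bs holds a CACACCC and a CCAAT match in the same window. Within 250 bases before the start, Hba-a1, Hba-a2, Hbb-bs and Alas2 each held at least 1 GATA motif and at least 1 Klf1 box. Hbb-bt held 1 Klf1 box and no GATA motif, Bpgm held neither, and the promoter of Epo held 1 GATA motif and 2 Klf1 boxes. Among all 32851 RefSeq promoters of that length, 16.6% held a GATA motif, 32.7% a Klf1 box, 33.8% a CCAAT word and 37.3% a TATA-like motif. These matches are letters in a window, and no binding was measured.

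In wild-type kidneys the globin genes were among the abundant RNAs. Hba-a2, an alpha-globin gene, stood at 3441, 2639 and 787 TPM under saline and at 1495, 3120 and 4415 TPM under cisplatin, which placed it between rank 19 and rank 129 of all genes in a library. In FAN1KO kidneys its level was 374, 934 and 1018 TPM under saline, and 3.40, 9.89 and 49.3 TPM under cisplatin, where its rank lay between 3078 and 12527. The 3 FAN1KO cisplatin libraries were below all 9 others, and wild-type saline replicate 3 lay among the FAN1KO saline values.

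Hba-a1, its neighbour, followed at a lower level. It measured 1437, 829 and 235 TPM in wild-type saline, 110, 296 and 287 TPM in FAN1KO saline, and 633, 1022 and 1537 TPM in wild-type cisplatin kidneys. In FAN1KO cisplatin kidneys it measured 1.62, 2.23 and 18.0 TPM. The order of libraries was nearly that of Hba-a2, with the same 3 lowest.

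The beta-globin gene Hbb-b1 stood at 1601, 860 and 220 TPM in wild-type saline, 83.5, 248 and 282 TPM in FAN1KO saline, 732, 984 and 1364 TPM in wild-type cisplatin and 1.45, 4.34 and 12.2 TPM in FAN1KO cisplatin kidneys. Hbb-bs, the lowest of the 4 globin genes in every library, stood at 426, 385 and 108 TPM in wild-type saline, 47.5, 172 and 153 TPM in FAN1KO saline and 172, 461 and 579 TPM in wild-type cisplatin kidneys. In FAN1KO cisplatin kidneys Hbb-bs was at 0.524, 0.767 and 5.08 TPM. For both genes the FAN1KO cisplatin libraries did not overlap any other group, and replicate 3 was the highest of them.

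The low values rested on few reads. Each TPM is a whole number of reads times a step, which gave back the reads per gene, and a read was worth 0.0312 to 0.0856 TPM across the globin genes and libraries. The FAN1KO cisplatin libraries held 19, 28 and 223 reads of Hba-a1, 40, 125 and 615 of Hba-a2, 19, 61 and 169 of Hbb-b1, and 7, 11 and 72 of Hbb-bs. Wild-type cisplatin libraries held 28457 to 51947 reads of Hba-a2. The difference between these groups is therefore far beyond counting error, while the exact level within FAN1KO cisplatin replicates 1 and 2 is not precise.

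Alas2 had the same order of groups at a lower level. It measured 35.5, 25.1 and 5.32 TPM in wild-type saline, 3.53, 7.38 and 8.47 TPM in FAN1KO saline, and 17.5, 28.6 and 39.5 TPM in wild-type cisplatin kidneys. In FAN1KO cisplatin kidneys it measured 1.01, 0.315 and 0.980 TPM, from 42, 14 and 43 reads. These 3 were again below all 9 others, but here replicate 2 was the lowest and replicate 3 was not set apart from replicate 1.

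Bpgm (12183, chr6:34476356-34505136) did not share this pattern. It stood at 50.5, 50.4 and 43.3 TPM in wild-type saline, 48.4, 41.5 and 40.0 TPM in FAN1KO saline, 48.8, 51.7 and 62.1 TPM in wild-type cisplatin, and 57.3, 48.1 and 49.7 TPM in FAN1KO cisplatin kidneys. All pairs of groups overlapped except FAN1KO saline and wild-type cisplatin, whose nearest values were 48.4 and 48.8 TPM.

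Epo (13856, chr5:137483020-137485816) was near the limit of detection. A read of Epo was worth 0.0279 to 0.0669 TPM. Wild-type saline libraries held 11, 7 and 1 reads (0.481, 0.414 and 0.0279 TPM), and FAN1KO saline libraries held 1, 2 and 2 reads (0.0479, 0.117 and 0.112 TPM). Wild-type cisplatin libraries held 0, 9 and 10 reads, and FAN1KO cisplatin libraries held 1, 0 and 0 reads. A count of 0 allows up to 3 reads, which is 0.124 TPM in wild-type cisplatin replicate 1 and 0.187 and 0.189 TPM in FAN1KO cisplatin replicates 2 and 3. In sum, wild-type kidneys held 19 reads under each treatment, and FAN1KO kidneys held 5 under saline and 1 under cisplatin. By a two-sided exact permutation test, which with 3 mice a group has a smallest p of 0.1 and so could not pass at any depth, Epo had p = 0.4 for genotype under saline.

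**Figure D1:**
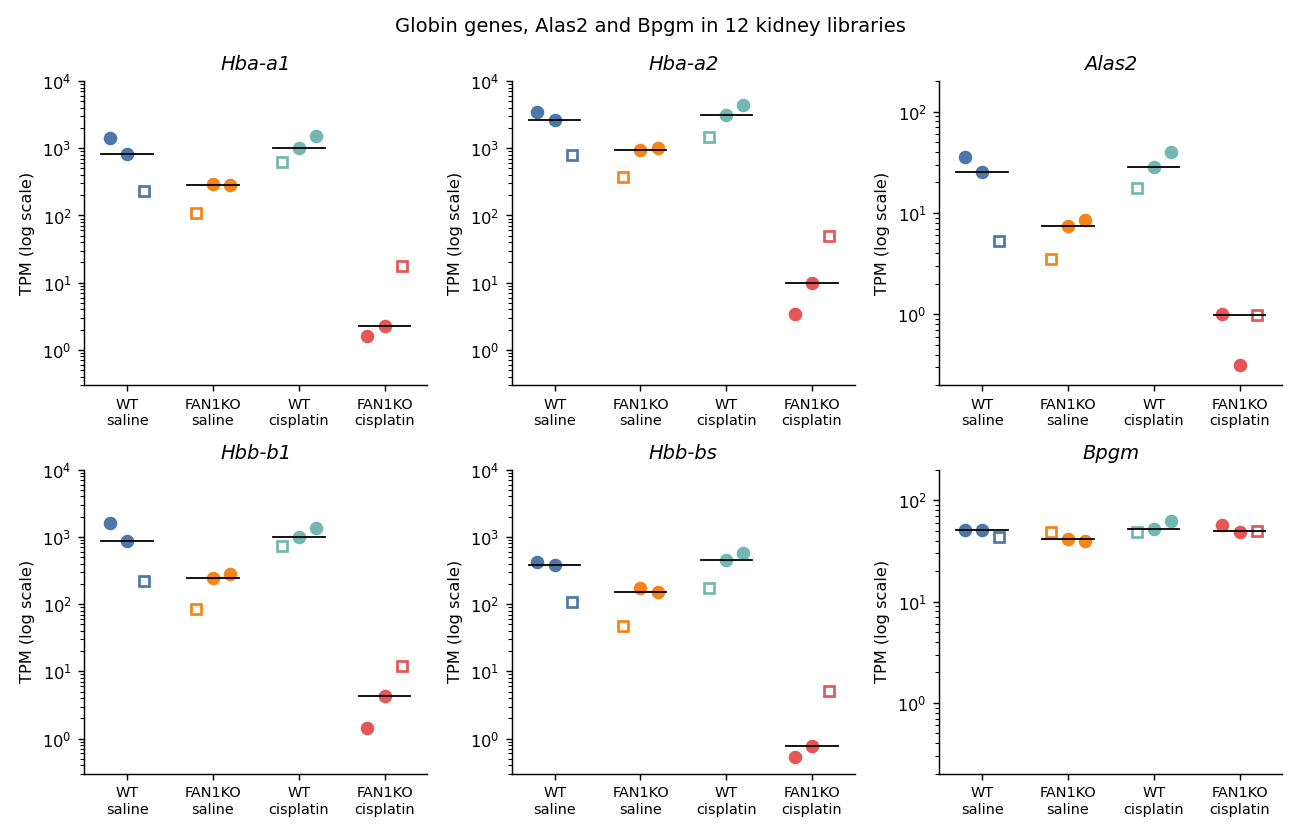
TPM of 6 members on a log axis in each of the 12 libraries, with replicates 1 to 3 from left to right, the median as a line, and open squares for the library of each group that held Y-linked RNA. The FAN1KO cisplatin libraries lie below 50 TPM for Hba-a2 and below all others for each globin gene and Alas2, while Bpgm lies between 40.0 and 62.1 TPM throughout.

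Some libraries stood apart in ways their labels do not give, the sex of the mice among them, as Y-linked RNA marks males. Y-linked RNA, summed over Uty, Kdm5d, Eif2s3y and Ddx3y, was at 65.1, 76.0, 75.5 and 92.2 TPM in wild-type saline replicate 3, FAN1KO saline replicate 1, wild-type cisplatin replicate 1 and FAN1KO cisplatin replicate 3, and at no more than 0.311 TPM in the other 8. In the first 3 of these libraries each of the 4 globin genes was at the lowest level of its group, and in FAN1KO cisplatin replicate 3 at the highest. The same 3 libraries were the deepest of their groups, with recovered reads of 50059527 to 82934724, against 37196010 to 56867321 in the other 9. Fan1, the targeted gene, overlapped between genotypes under both treatments, at 1.98 to 3.80 TPM in wild-type saline, 1.17 to 2.28 TPM in FAN1KO saline, 2.33 to 3.57 TPM in wild-type cisplatin and 1.55 to 3.51 TPM in FAN1KO cisplatin kidneys, so that in whole kidneys with a proximal tubule deletion it does not check the labels. The sum of 10 kidney genes, among them Umod and Slc34a1, was 3952, 4582 and 5064 TPM in the FAN1KO cisplatin libraries and 5449 to 7315 TPM in the other 9. The 3 libraries with the least globin RNA thus also had the lowest sums of these 10 genes, by far less than the globin genes. For genotype under cisplatin 8 of the 10 had a difference below 0, while Aqp2 and Slc12a3 were above 0. Slc34a1 was at 837 to 1590 TPM in FAN1KO cisplatin and 2087 to 2776 TPM in wild-type cisplatin libraries. Aqp2 was at 738 to 1292 and 208 to 536 TPM. The part of the lower sums in the globin values was not tested.

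The saline kidneys, from other mice, ask whether the genotypes differed without cisplatin, and these 6 libraries took no part in the choice of the globin genes. Mean levels in FAN1KO kidneys were lower for each globin gene and Alas2, but the groups overlapped because of wild-type saline replicate 3. On the log2(TPM + 1) scale, where a difference understates the change of low genes, FAN1KO minus wild-type was −1.63 ± 0.819 (SE, n = 3 and 3) for Hba-a1, −1.44 ± 0.850 for Hba-a2, −1.89 ± 0.774 for Hbb-b1, −1.26 ± 0.738 for Hbb-bs and −1.35 ± 0.577 for Alas2. None of the 6 members tested passed the threshold in limma with Benjamini–Hochberg adjustment over 14972 genes, with adjusted p from 0.515 for Hbb-b1 to 0.962 for Bpgm. Among all genes tested 0.427% were called lower and 0.341% higher. Of all genes 7.83% were lower without overlap, beside 0 of the 6. The exact permutation test gave p = 0.3 for the alpha-globin sum and p = 0.3 for the beta-globin sum.

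The saline result changed when the 4 libraries with Y-linked RNA were left out, a step chosen after seeing the data that leaves 2 mice against 2. Each of the 6 members, Bpgm included, was then lower in both FAN1KO saline libraries than in both wild-type saline libraries, as were 29.7% of all genes tested. The means were 292 against 1133 TPM for Hba-a1, a 3.88-fold difference, and 162 against 405 TPM for Hbb-bs, a 2.50-fold difference. For Alas2 they were 7.92 against 30.3 TPM, a 3.82-fold difference. Hba-a1 (adjusted p = 0.0225), Hbb-bs (0.00735) and Alas2 (0.0208) passed limma's threshold in that fit, in which 1.19% of all genes were called lower and 0.781% higher. Over all alternatives the lowest adjusted p was 0.0522 for Hbb-b1 and 0.104 for Hba-a2. With all 12 libraries and the Y-linked level as a covariate, none of the 6 passed, with adjusted p from 0.155 for Alas2 to 0.585 for Bpgm. The libraries with Y-linked RNA also differed in depth, whose part in these values was not tested.

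Cisplatin against saline in wild-type kidneys asks for an effect of the drug without the deletion. The wild-type cisplatin libraries are those against which the globin genes were chosen. Differences were of the order of their errors, from 0.46 ± 0.738 (SE, n = 3 and 3) for Hbb-bs to 0.63 ± 0.577 for Alas2 on the log2(TPM + 1) scale, and 0.17 ± 0.124 for Bpgm. For that reason the members are given here with no test. Among all genes 0% were called lower and 0.0601% higher, or 9 genes, and 449 genes had an unadjusted p under 0.05. Lower values without overlap were found for 1.08% of all genes and for 0 of the 6. The direction rested on 1 library: without wild-type saline replicate 3 the differences were −0.13 for Hba-a1, −0.14 for Hba-a2, −0.24 for Hbb-b1, −0.17 for Hbb-bs and −0.14 for Alas2.

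Genotype under cisplatin is the comparison that chose the globin genes, and its values are a description. The mean was 1064 TPM in wild-type and 7.29 TPM in FAN1KO kidneys for Hba-a1 (146-fold lower), 3010 and 20.9 TPM for Hba-a2 (144-fold lower), 1027 and 5.99 TPM for Hbb-b1 (171-fold lower), and 404 and 2.12 TPM for Hbb-bs (190-fold lower). For Alas2 it was 28.5 and 0.770 TPM (37.0-fold lower). On the log2(TPM + 1) scale these are differences of −7.52, −7.68, −7.48, −7.15 and −4.01, and that of Bpgm was −0.06, with a median over all genes of 0.24. Of the 6 members past the filter, 5 were lower without overlap, where 8.6% of all genes were lower without overlap, 4.37% were called lower and 19.6% higher. Of the calls 81.8% were higher, and 54.6% with median-ratio scaling. Without the 4 libraries with Y-linked RNA the folds were larger, from 405-fold for Hbb-b1 to 806-fold for Hbb-bs. Without FAN1KO cisplatin replicate 3 alone, which held the highest globin values of its group, Hba-a1 was 552-fold and Hba-a2 453-fold lower.

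Cisplatin against saline in FAN1KO kidneys shares the same low libraries and is likewise a description. The saline and cisplatin means were 231 and 7.29 TPM for Hba-a1 (31.7-fold lower), 775 and 20.9 TPM for Hba-a2 (37.2-fold lower), 205 and 5.99 TPM for Hbb-b1 (34.1-fold lower) and 124 and 2.12 TPM for Hbb-bs (58.4-fold lower). Alas2 stood at 6.46 and 0.770 TPM, an 8.39-fold difference. Bpgm stood at 43.3 and 51.7 TPM. The folds rested in part on 1 library: without FAN1KO cisplatin replicate 3 they were 119.9 for Hba-a1, 117 for Hba-a2, 70.6 for Hbb-b1, 192 for Hbb-bs and 9.72 for Alas2. No library of one group overlapped the other for the 4 globin genes and Alas2, where 7.43% of all genes were lower without overlap, 4.9% were called lower and 34.9% higher.

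**Figure D2:**
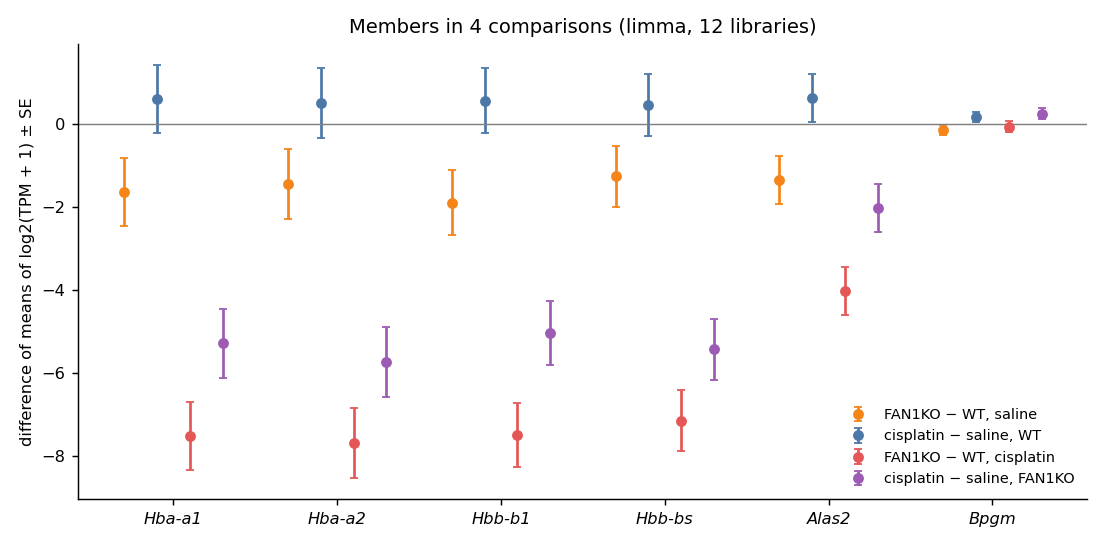
Difference of group means on the log2(TPM + 1) scale with its SE from limma, for 6 members in 4 comparisons. The 4 globin genes lie between −7.68 and −7.15 for FAN1KO against wild-type under cisplatin and between 0.46 and 0.61 for cisplatin in wild-type kidneys, and Bpgm stays between −0.15 and 0.25.

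The proportions among the globin genes held across this range of levels. The summed alpha-globin TPM ranged from 5.02 to 5952, a span of 1185-fold, while the ratio of summed alpha to summed beta TPM stayed between 2.35 and 3.90. It was 2.41, 2.79 and 3.12 in wild-type saline, 3.70, 2.93 and 3.00 in FAN1KO saline, 2.35, 2.87 and 3.06 in wild-type cisplatin and 2.54, 2.37 and 3.90 in FAN1KO cisplatin libraries. The groups overlapped, and Hbb-bt is not in the beta sum. Together the 4 genes took 0.135 to 0.691% of all TPM in wild-type saline, 0.0615 to 0.174% in FAN1KO saline, 0.303 to 0.790% in wild-type cisplatin and 0.0007 to 0.00845% in FAN1KO cisplatin libraries.

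Hba-a2 held most of the alpha-globin TPM, between 67.6% and 81.6%. Hbb-b1 held 59.0% to 85.0% of the beta-globin TPM, with 59.0% to 64.9% in the 3 FAN1KO saline libraries and 67.1% to 85.0% in the other 9. In reads, the Hba-a2 share in FAN1KO cisplatin replicate 1 was 40 of 59 alpha-globin reads, or 67.8% with an exact (Clopper–Pearson) 95% interval of 54.4% to 79.4% for counting error only. That interval held the read shares of 10 of the other libraries, from 70.4% to 78.1%, but not that of FAN1KO cisplatin replicate 2, which was 125 of 153 reads or 81.7% (74.7% to 87.5%). Globin copies are near-identical, and how reads that fit several copies were shared out is not given in the sources used here. The split within each pair is uncertain for that reason. Hbb-b1 is also annotated on an alternate sequence, and the mice had a mixed strain background. The part of strain in the Hbb-b1 share was not tested.

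Alas2 kept a constant proportion to alpha-globin in 9 libraries, between 5.20 and 8.22 TPM for each 1000 TPM of alpha-globin. In FAN1KO cisplatin replicates 1, 2 and 3 it was 202, 26.0 and 14.6. Alas2 was therefore lower there by less than the globin genes, and the library with the least globin had the highest proportion.

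**Figure D3:**
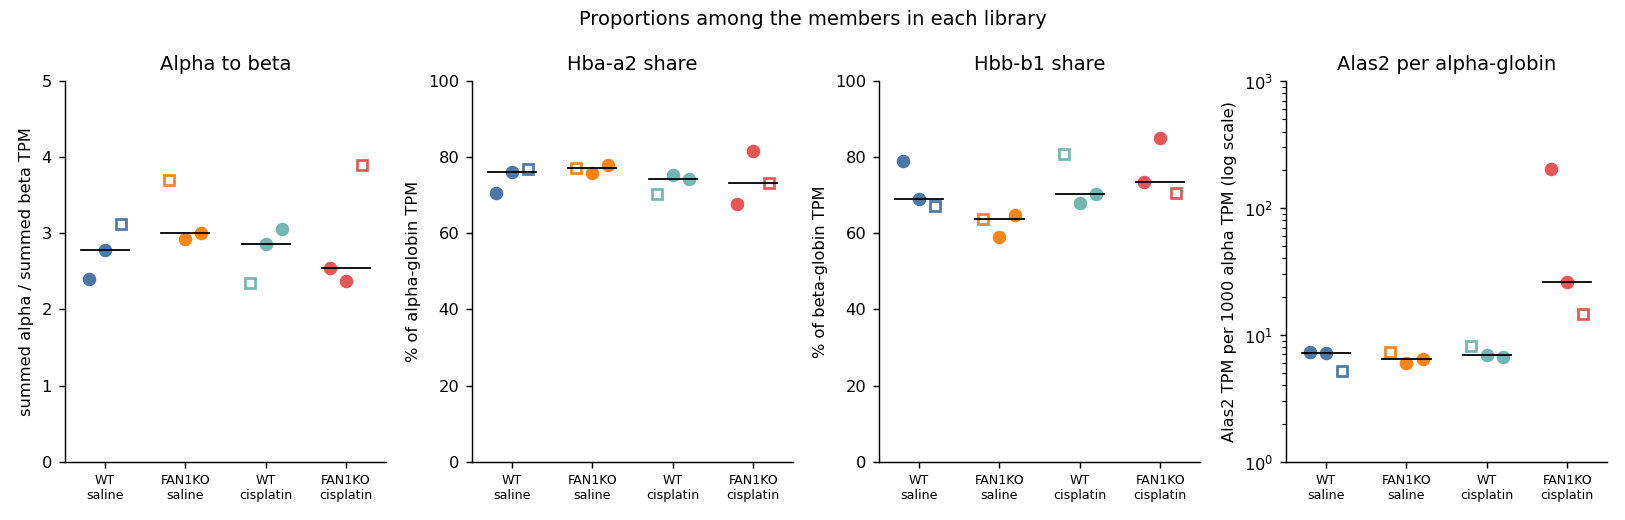
The ratio of summed alpha-globin to beta-globin TPM, the share of Hba-a2 in alpha-globin, the share of Hbb-b1 in beta-globin, and Alas2 TPM per 1000 alpha-globin TPM (log axis) in each library, with medians as lines and open squares for libraries with Y-linked RNA. The first 3 panels stay within 1.66-fold across all 12 libraries, and the Alas2 proportion is 14.6 to 202 in FAN1KO cisplatin and 5.20 to 8.22 elsewhere.

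Several genes that mark red cell precursors, named after their values were seen, were close to absent from all 12 libraries. Gata1, the transcription factor that defines the erythroid lineage, reached at most 0.0530 TPM, Gfi1b at most 0.0497 TPM and the red cell carbonic anhydrase Car1 at most 0.0726 TPM. Rhag, a membrane protein of the Rh complex, reached at most 0.268 TPM. The embryonic globin genes Hba-x, Hbb-y, Hbb-bh1 and Hbb-bh2 were listed at 0 throughout. Below 1 TPM in every library were 5 of 10 erythroid transcription factors, 9 of 17 red cell membrane genes and 6 of 15 late erythroid and reticulocyte genes. Other transcription factors of the list were measured throughout, with Klf1 at 0.366 to 2.84 TPM, Tal1 at 0.198 to 1.35 TPM and Lmo2 at 3.71 to 21.4 TPM. In these bulk samples fewer red cells and less RNA per cell cannot be told apart.

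Other red cell genes were expressed but did not follow the globins. For genotype under cisplatin, 4.37% of all genes were called lower and 19.6% higher. Of 17 red cell membrane genes 7 were tested, and 0 were called for genotype under cisplatin, with a median difference of −0.19 on the log2(TPM + 1) scale beside 0.24 for all genes. Slc4a1, the band 3 anion exchanger that intercalated cells also make, measured 10.9 to 18.2 TPM in wild-type cisplatin and 9.13 to 17.2 TPM in FAN1KO cisplatin kidneys. Of 15 late erythroid and reticulocyte genes 9 were tested and 0 were called (median −0.05). Of 10 erythroid transcription factors 5 were tested and 1 was called: Klf1, a globin activator, was higher at 2.49 ± 0.308 TPM (SD, n = 3) in FAN1KO than at 0.652 ± 0.341 TPM in wild-type cisplatin kidneys (limma adjusted p = 0.0224). Klf1 reached at most 2.84 TPM in any library, and it was also at 2.46 and 2.84 TPM in FAN1KO saline replicates 2 and 3.

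Of the 12 heme synthesis genes, all tested, 2 were called lower under cisplatin and 0 higher, beside 4.37% and 19.6% of all genes. Uros, which closes the porphyrin ring, fell from 29.4 ± 1.43 TPM (SD, n = 3) in wild-type to 16.6 ± 1.59 TPM in FAN1KO kidneys (difference −0.79 ± 0.102 SE on the log2(TPM + 1) scale, limma adjusted p = 0.000927). Alad, which joins 2 aminolevulinate molecules, fell from 286 ± 47.1 to 171 ± 32.1 TPM (adjusted p = 0.0258). The housekeeping enzyme Alas1, the form outside red cells, stood at 33.9, 47.7 and 109 TPM in wild-type and 81.2, 117 and 84.0 TPM in FAN1KO cisplatin kidneys and did not pass (adjusted p = 0.151). In FAN1KO kidneys, cisplatin against saline, 4.9% of all genes were called lower and 34.9% higher. There Uros also fell (from 31.7 to 16.6 TPM, limma adjusted p = 0.000248) and Urod rose (from 120 to 146 TPM, limma adjusted p = 0.0232). Urod was, however, at −0.15 with median-ratio scaling, which lowers the difference of the median gene in that comparison from 0.37 to −0.01.

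The genes around Epo were measured more deeply than Epo itself. Beside the counts that follow for genotype under cisplatin, 4.37% of all genes were called lower and 19.6% higher. Of 6 genes tested of 7 in the Epo signalling list, 0 were called for genotype under cisplatin (median −0.05), and the receptor gene Epor was at 1.83 to 5.55 TPM in wild-type and 2.98 to 4.89 TPM in FAN1KO cisplatin kidneys. Of 8 oxygen sensing genes tested of 9, Egln1, the prolyl hydroxylase that marks hypoxia-inducible factors for destruction, fell from 51.4 to 36.8 TPM (adjusted p = 0.0213). Egln2, another such hydroxylase, was called higher, at 97.2 against 80.5 TPM (adjusted p = 0.0400), but was at −0.02 with median-ratio scaling, which lowers the median gene from 0.24 to −0.01. Of 10 hypoxia targets tested, 1 was called lower: Vegfa, the vascular growth factor, fell from 106 ± 7.68 to 64.0 ± 9.29 TPM (SD, n = 3, adjusted p = 0.00329). Of 8 genes of the interstitial and pericyte cells among which Epo is made, 1 was called, the pericyte proteoglycan Cspg4, at 11.4 against 6.21 TPM (adjusted p = 0.0374). In FAN1KO kidneys, cisplatin against saline, 4.9% of all genes were called lower and 34.9% higher. There Tfrc, the transferrin receptor that brings iron into cells, fell from 26.8 ± 3.30 to 10.2 ± 1.04 TPM (limma adjusted p = 0.0018). Stat5a, which carries the Epo receptor's signal, rose from 8.13 to 12.3 TPM (limma adjusted p = 0.0200). Under median-ratio scaling Stat5a had a difference of 0.14 and a limma adjusted p = 0.512.

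Genes that take up and break down hemoglobin are part of the kidney's own program. Of 9 tested of 11, 2 were called lower for genotype under cisplatin, beside 4.37% of all genes. They were Lrp2 (megalin) and Cubn (cubilin), receptors by which the proximal tubule recovers filtered proteins. Lrp2 fell from 239 to 89.4 TPM (limma adjusted p = 0.00271) and Cubn from 55.2 to 29.9 TPM (limma adjusted p = 0.0308). Hmox1, which opens the heme ring, stood at 3214 TPM in wild-type cisplatin replicate 2 and between 23.9 and 386 TPM in the other 11 libraries, and the globin values of that library were within the range of its group. For genotype under saline, and for cisplatin in wild-type kidneys, 0 genes were called in every one of these lists. In wild-type kidneys this held in all 21 alternatives. For genotype under saline 3 genes were called lower in some of the 21: Cish, an inhibitor of cytokine signalling that the Epo receptor induces, in 4 (adjusted p = 0.0903 with all libraries, 0.0290 with median-ratio scaling, 0.0296 without wild-type cisplatin replicate 1, 0.0335 without the 4 libraries with Y-linked RNA), Alad in 2 (0.0577 with all libraries, 0.0188 with the Y-linked covariate, 0.0299 without FAN1KO saline replicate 3) and Ube2l6, a conjugating enzyme of ubiquitin-like proteins, in 2 (0.788 with all libraries, 0.00697 without the 4). For the interaction of genotype and treatment, called for 6.24% of all genes, Uros, Vegfa, Lrp2 and the phosphate transporter gene Slc34a1 were called and no other list gene was. Each of them had a cisplatin response that was more negative in FAN1KO than in wild-type kidneys. For genotype under cisplatin, Uros, Vegfa and Lrp2 kept their calls in all 21 alternatives. Klf1, Alad and Egln1 were called in 17 of the 21, Itgb3 in 16, Cubn in 14, Cspg4 in 12 and Egln2 in 8. For cisplatin in FAN1KO kidneys, Uros and Tfrc were called in all 21, Stat5a in 17 and Urod in 15. For genotype under cisplatin, without FAN1KO cisplatin replicate 1 Klf1 (adjusted p = 0.0826), Egln1 (0.0674), Alad (0.112), Cubn (0.122) and Itgb3 (0.1004) lost theirs in limma, and without wild-type cisplatin replicate 1 Cspg4 did (0.136).

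**Figure D4:**
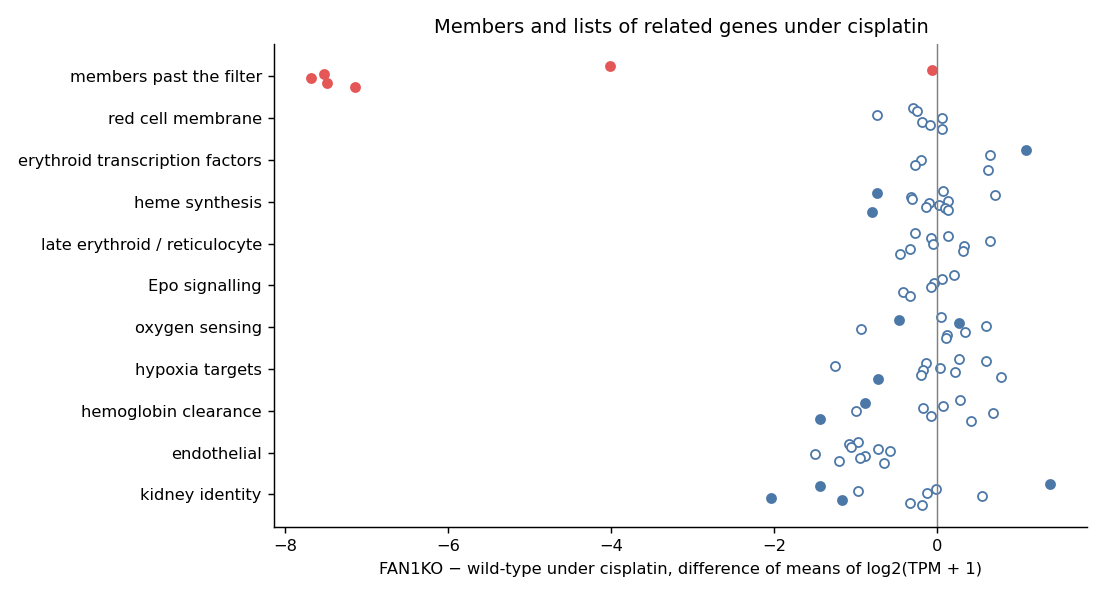
Difference of FAN1KO and wild-type kidneys under cisplatin on the log2(TPM + 1) scale, 1 point a gene, for the members past the filter (red, no test) and for lists of related genes (blue, filled where limma's adjusted p was under 0.05). The 4 globin genes lie between −7.68 and −7.15 and Alas2 at −4.01, while no gene of the red cell, heme, Epo or oxygen lists lies below −1.25.

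Markers of the cells that line blood vessels differed between libraries as well. The 11 endothelial genes summed to 121 to 377 TPM in wild-type saline, 109 to 487 TPM in FAN1KO saline, 109 to 510 TPM in wild-type cisplatin and 67.1 to 237 TPM in FAN1KO cisplatin libraries. The lowest sum of each group was in its library with Y-linked RNA. Under cisplatin 0 of 10 tested were called for genotype, while all 10 had a difference below 0 (median −0.96), and without the 4 libraries with Y-linked RNA 9 of 10 were called lower, in a fit that called 7.76% of all genes lower and 28.9% higher. In FAN1KO saline replicates 2 and 3 the endothelial sum was 487 and 431 TPM beside 1231 and 1305 TPM of alpha-globin, and in wild-type saline replicates 1 and 2 it was 377 and 317 TPM beside 4878 and 3468 TPM. Within FAN1KO cisplatin the order was opposite: replicates 1, 2 and 3 had 237, 145 and 67.1 TPM of endothelial and 5.02, 12.1 and 67.3 TPM of alpha-globin RNA. The part of vessel content in the globin values was not tested.

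**Figure D5:**
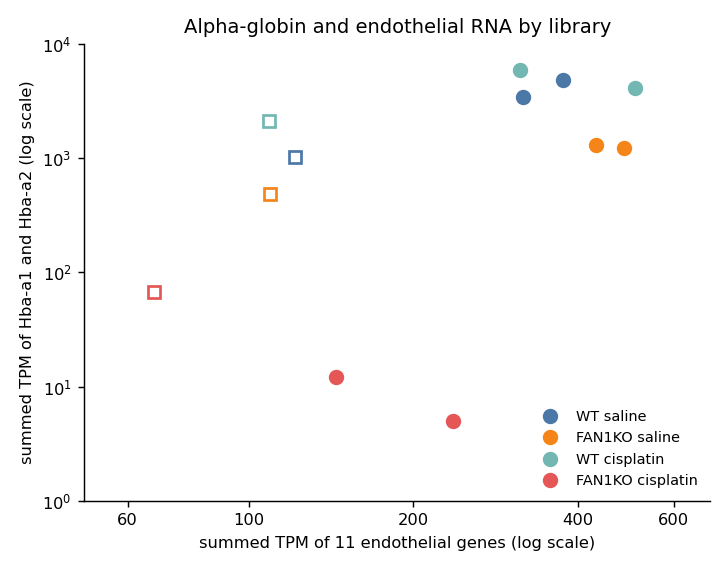
Summed TPM of Hba-a1 and Hba-a2 against summed TPM of 11 endothelial genes in each library, both on log axes, with open squares for libraries with Y-linked RNA. FAN1KO cisplatin replicate 1 has 237 TPM of endothelial RNA and 5.02 TPM of alpha-globin, while wild-type cisplatin replicate 1 has 109 and 2128 TPM.

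The sums and calls of genes of other blood cells did not follow the globins either. Of 11 platelet genes 3 were tested, and the integrin gene Itgb3 was called higher for FAN1KO under cisplatin, at 2.52 against 0.911 TPM (adjusted p = 0.0239). Of the 11, 6 stayed below 1 TPM in every library, too low to show a direction. Among them, Treml1 was at 0.0970, 0.594 and 0.314 TPM in wild-type cisplatin and 0.0392, 0 and 0.111 TPM in FAN1KO cisplatin libraries. Gp5 leaned the other way, at 0, 0.166 and 0.0437 TPM and at 0.109, 0.122 and 0.206 TPM. The 11 platelet genes summed to 13.6 to 24.6 TPM in FAN1KO cisplatin and 7.40 to 12.6 TPM in wild-type cisplatin libraries. The 12 neutrophil genes summed to 7.98 to 11.9 and 2.00 to 6.69 TPM, with 0 of 2 tested called, and the 10 lymphocyte genes to 8.51 to 256 and 7.70 to 34.8 TPM, with 0 of 7 called. Of these lists, the platelet and neutrophil sums did not overlap between the 2 groups, in the direction opposite to that of the globins. In this comparison 19.6% of all genes were called higher and the median gene was at 0.24. The share of all genes higher without overlap was not computed, so whether these sums stand apart from that shift was not tested.

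Across the 12 libraries the globin genes had the widest ranges of the members. The highest minus the lowest log2(TPM + 1) was 9.97 for Hba-a2, 9.35 for Hbb-b1, 9.19 for Hba-a1 and 8.57 for Hbb-bs, ranks 2, 3, 4 and 6 of 14972 genes. It was 4.94 for Alas2 (rank 98) and 0.62 for Bpgm (rank 12600), beside a median of 1.11. The globin ranges take in the cisplatin values on which these genes were chosen. Their high ranks follow in part from that choice and are a description. Among the genes most like the mean of the 4 globin genes, by Pearson's r of log2(TPM + 1) over 12 libraries that share 4 groups, were Kmo (0.980), Gfm2 (0.976), Mgam (0.976), Dmgdh (0.975), Pvalb (0.971), Adi1 (0.970), F13b (0.966), Paqr9 (0.965) and Vwce (0.964). Alas2 had r = 0.946, with 31 genes above it, the 4 globin genes among them, and Bpgm had r = −0.06. After the group means were subtracted, which leaves the spread among mice of 1 group, Miox (0.968), an unnamed gene (NCBI Gene 100038730, 0.950), Mttp (0.941), Tmem185b (0.928) and Adgrg4 (0.924) were most alike, and Alas2 had r = 0.764. Their ranges were narrower than those of the globins: that of Kmo was 2.07, from 33.6 to 144 TPM, and that of Pvalb was 6.22, from 4.55 to 411 TPM.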

How the data were processed

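RNA sequencing of 12 mouse kidneys was deposited as 1 table of TPM for 27179 genes, which the authors made from reads by steps not given in the sources used here; the submitters' processing notes name the build mm10 and limma. TPM depends on all other RNAs of a library, so that a change in a few abundant genes moves the rest. Names came from RefSeq on GRCm38.p6 (1904 identifiers unnamed). Reads were recovered from the steps of the TPM: 229091 of 229091 values above 0, in genes above 0 in at least 4 libraries, were whole within 0.01 reads. Recovered reads were 37196010 to 82934724 per library.

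Groups came from the sample labels. The test, on genes that reached a TPM of 1 in 3 or more libraries, was limma 3.58.1 (R 4.3.3) of log2(TPM + 1), with 4 group means, a mean-variance trend and Benjamini–Hochberg adjustment (threshold 0.05). Sums and Epo, which did not pass the filter, were compared by the exact permutation test (scipy 1.17.1). The members and lists were chosen with earlier results of these data known, so members have no p in any comparison with cisplatin kidneys. Named were all members, Fan1, up to 3 genes a list and comparison (adjusted p under 0.05, no overlap, largest differences) and the genes most like the globins; other genes were named after their values were seen. Likeness used the 4 globin genes with a row. The alternatives were a pseudocount of 0.1, no filter, median-ratio scaling, only the 6 libraries compared, a replicate block, a Y-linked covariate, summed globin copies and each library left out; voom on recovered reads and leaving out the 4 libraries with Y-linked RNA were chosen after seeing the data. Nothing says whether the 3 mice of a group shared litters. The steps were tested on simulated data. Intervals and floors cover counting error only. Results of some list and likeness genes are not reported here.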

Additional observations from a re-analysis of the deposited data

Results flagged for a closer look

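Of the genes in the lists, 4 differed between genotypes in their response to cisplatin, by the interaction term of limma (cisplatin minus saline in FAN1KO less that in wild-type kidneys, adjusted over 14972 genes, of which 6.24% were called). On the log2(TPM + 1) scale it was −0.80 ± 0.144 (SE, adjusted p = 0.0158) for the heme synthesis gene Uros and −0.81 ± 0.174 (adjusted p = 0.0282) for the hypoxia target Vegfa. It was −1.39 ± 0.330 (adjusted p = 0.0390) for Lrp2 and −1.44 ± 0.330 (adjusted p = 0.0338) for the phosphate transporter gene Slc34a1, both of the proximal tubule. By list, calls were 1 of 12 heme synthesis genes tested, 1 of 10 hypoxia targets, 1 of 9 hemoglobin clearance genes and 2 of 10 kidney genes. Lrp2 is in the last 2 of these lists, and no gene of the other lists was called. Whether the lists held more calls than all genes was not tested. The members have no test here, since their choice used libraries of the interaction term.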

How the results depend on the processing

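The 4 globin genes and Alas2 were lower in FAN1KO kidneys under saline and lower in FAN1KO cisplatin kidneys than in either other group they were compared with under all alternatives run. Under saline, leaving out the 4 libraries with Y-linked RNA took Hba-a1 (−1.90), Hbb-bs (−1.32) and Alas2 (−1.79) past the threshold. For cisplatin in wild-type kidneys it put Hbb-b1 at −0.019, and with 1 library left out the ranges were −0.13 to 1.17 (Hba-a1), −0.14 to 0.95 (Hba-a2), −0.24 to 1.19 (Hbb-b1), −0.17 to 0.99 (Hbb-bs), −0.14 to 1.13 (Alas2) and −0.070 to 0.33 (Epo, −0.043 without wild-type cisplatin replicate 3). For FAN1KO against wild-type under cisplatin, leaving out the 4 libraries gave −8.75 (Hba-a1), −9.07 (Hba-a2) and −8.30 (Hbb-bs), and in cisplatin against saline in FAN1KO kidneys −6.65 (Hba-a1), −7.14 (Hba-a2), −6.20 (Hbb-b1) and −6.64 (Hbb-bs). For Alas2 a pseudocount of 0.1 gave −5.10 and −2.95 and voom −5.27 and −3.15 in these 2 comparisons, both of which add less to a low value than a pseudocount of 1. Median-ratio scaling put Bpgm at −0.35 and −0.18, and with 1 library left out it ranged from −0.14 to 0.037 for genotype under cisplatin.

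Genes called numbered 115 (saline), 9 (cisplatin in wild-type), 3585 (genotype under cisplatin), 5962 (cisplatin in FAN1KO) and 935 (interaction). Without the filter they were 73 and 1 in the first 2, and with only the 6 libraries compared 27, 0 and 2175 in the first 3. Median-ratio scaling gave 16 for cisplatin in wild-type kidneys and 558 for the interaction, and moved the share of calls that were higher from 44.4% to 54.4% (saline), 81.8% to 54.6% (genotype under cisplatin), 87.7% to 53.3% (cisplatin in FAN1KO) and 83.6% to 67.0% (interaction). The Y-linked covariate gave 421, 58, 7323, 9141 and 4734. Leaving out the 4 libraries gave 295, 63, 5490 and 2438 (interaction). The replicate block gave 61, 0 and 424 (interaction); same-numbered libraries were different mice whose deviations correlated at a mean of −0.24 to −0.14, so the numbers were not taken as pairs, and under the block no member changed its call. With 1 library left out the counts ranged from 43 to 129, 0 to 41, 1539 to 3830, 3622 to 6393 and 269 to 1197. The cause of these changes was not tested. Depth limits Epo and the globin values of FAN1KO cisplatin kidneys; 3 mice a group and a library with Y-linked RNA in each limit the saline comparison.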
